A study of Mus musculus with 12 samples.

Results

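The 32 genes described here are named for macrophages that derive from bone marrow and settle in the brain. They are 32 of the 36491 genes in the count table, picked by their gene symbols. The list was drawn up with results of these libraries in view, among them the differences between mice irradiated without and with a head shield, so those differences are given below as a description without a test. A filter on low counts kept 18875 genes, and all 32 passed it. Not all of them were higher in mice without the shield: at an adjusted p below 0.05, 19 were called higher and 6 lower in unshielded mice both with and without lipopolysaccharide (LPS), where 3.09% and 5.17% of all genes were called so, and the choice of genes had used these values.

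All libraries came from brains of wild-type C57BL/6J mice, adult males aged 6 months, that had been given a bone marrow transplant (BMT), then food with PLX5622 for 2 weeks, then standard chow for 6 weeks. PLX5622 inhibits the CSF1 receptor, on which microglia depend, and empties much of the brain of them while it is given. The 4 groups of 3 libraries were unshielded mice injected into the peritoneum with 50 µg of LPS, a bacterial cell wall component; unshielded mice given no LPS, for which the treatment protocol names saline; shielded mice given LPS; and shielded mice given no LPS. Cells were taken 6 hours after the injection with magnetic beads against CD11b, an integrin found on microglia, other macrophages, monocytes and neutrophils, and their RNA was amplified before sequencing. The labels call these cells microglia and give no mark that tells donor from host cells. Whether the 3 samples of a group came from separate animals is not stated, and the p-values thus cover the spread among these libraries only, part of which may be technical. Groups follow the sample titles, and 2 shielded libraries titled as without LPS, libraries 2 and 3, carry LPS in their treatment field. Calls of LPS effects that changed without these 2 libraries are given beside the gene, and calls by shield as counts.

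Microglia arise from the yolk sac and maintain themselves in the brain, so marrow-derived macrophages are rare there unless the niche is emptied and marrow cells can reach it. Irradiation of the head opens that route, and a shield keeps the head out of the beam. Cells that then settle in the brain take on a microglia-like shape yet are known to keep expression of genes such as Apoe, Ms4a7 and Clec12a and to lack the microglial transcription factor Sall1.

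Among the genes that LPS raised in both unshielded and shielded mice, 3 carried the letters GAAA, any 2 bases and GAAA again, the spaced repeat that interferon regulatory factors can bind, in the window from 250 bases before to 50 bases after a start site. They are shown because these genes moved together with LPS. The capitals mark the match, and the sequences are from RefSeq on build GRCm38.p6, whereas the deposited counts were made on mm9. Ifitm2 lies at chr7:140955912-140956211 on the minus strand, Tgfbi at chr13:56609336-56609635 on the plus strand, and Emilin2 at chr17:71311507-71311806 on the minus strand.
Ifitm2: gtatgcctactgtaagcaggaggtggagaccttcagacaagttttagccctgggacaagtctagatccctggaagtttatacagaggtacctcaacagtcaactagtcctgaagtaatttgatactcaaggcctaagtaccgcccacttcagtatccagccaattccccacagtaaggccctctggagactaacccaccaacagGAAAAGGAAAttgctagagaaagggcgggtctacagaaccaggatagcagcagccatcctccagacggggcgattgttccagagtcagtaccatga
Tgfbi: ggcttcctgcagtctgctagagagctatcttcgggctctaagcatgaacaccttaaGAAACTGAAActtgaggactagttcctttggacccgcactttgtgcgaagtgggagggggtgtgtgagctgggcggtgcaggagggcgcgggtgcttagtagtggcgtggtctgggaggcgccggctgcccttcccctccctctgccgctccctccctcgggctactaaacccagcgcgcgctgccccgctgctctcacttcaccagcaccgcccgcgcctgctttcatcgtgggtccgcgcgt
Emilin2: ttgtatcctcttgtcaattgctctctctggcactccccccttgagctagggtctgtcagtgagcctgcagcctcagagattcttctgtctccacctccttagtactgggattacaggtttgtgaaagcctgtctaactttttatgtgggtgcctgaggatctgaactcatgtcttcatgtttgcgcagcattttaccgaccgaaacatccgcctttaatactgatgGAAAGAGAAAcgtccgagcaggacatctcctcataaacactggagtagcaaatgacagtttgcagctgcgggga
The match began 46 bases before the start site of Ifitm2, 194 bases before that of Tgfbi and 24 bases before the start site shown for Emilin2. Another promoter of Emilin2, at chr17:71310962-71311261, held no such match. Both strands were searched, and 3.44% of the 32851 promoters in the table held a match, against 3 of the 34 promoters found for 28 of the genes. The promoters of Clec4a1 and Cd38, which LPS also raised in both kinds of mice, held none. The letters GGGA and CC with any 4 bases between them, an NF-kappaB-like motif, occurred in 11 of the 34 promoters and in 20.7% of all promoters. GAGGAAGT, a PU.1-like motif, occurred in 2 of the 34, those of F13a1 and Fgd2, and in 3.2% of all promoters. A match is a run of letters and does not show that a factor binds there.

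Library totals ran from 18090977 to 60495968 counts, with 56776710 to 60495968 in the unshielded LPS libraries, 18090977 to 40792878 in the unshielded libraries without LPS, 29794946 to 40730784 in those shielded and given LPS and 28770354 to 42931839 in those shielded without LPS. The 10 LPS-response genes used as a check, such as Il1b and Cxcl10, averaged 7.34 to 7.89 log2 CPM (library-scaled counts, CPM) in the unshielded LPS libraries against 3.15 to 4.51 in the unshielded libraries without LPS. With the shield they averaged 8.10 to 8.66 after LPS, and 3.75, 3.31 and 2.94 in libraries 1, 2 and 3 without LPS, so the libraries with conflicting labels lay at the level of the other libraries titled as without LPS. The microglial markers P2ry12, Tmem119 and Sall1 were present in every library. P2ry12 had 308.9 to 397.3 CPM in unshielded LPS libraries, 649.9 to 1072 in unshielded libraries without LPS, 523.8 to 630.8 in shielded LPS libraries and 2009 to 2718 in shielded libraries without LPS. Tmem119 had 1002 to 1187 CPM in unshielded LPS libraries and 929.2 to 1157 in unshielded libraries without LPS. In shielded mice Tmem119 had 1324 to 1621 CPM with LPS and 1855 to 2104 without. Markers of neurons and oligodendrocytes differed between libraries as well. Summed neuron markers were 117.8 to 220.3 CPM in unshielded LPS libraries and 268.4 to 314.6 in unshielded libraries without LPS, against 34.2, 60.9 and 164.9 in shielded LPS libraries 1, 2 and 3 and 181.3 to 338.2 in shielded libraries without LPS.

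Between unshielded and shielded mice, most of the 32 genes stood apart in both conditions, which the choice of genes had used. Without LPS, 19 genes were called higher and 7 lower in unshielded mice at an adjusted p below 0.05, where 3.98% of all genes were called higher and 6.85% lower (10.8% in either direction). Without the libraries with conflicting labels, shielded libraries 2 and 3, the fit called 7 higher and 3 lower without LPS. After LPS, 21 were called higher and 6 lower, where 19.1% of all genes were called higher and 25.6% lower (44.6% in either direction). Log2 fold changes of single genes are given ± SE throughout. The median log2 fold change of the 32 genes was 0.71 without LPS and 1.43 after LPS, against -0.00 and 0.07 over all genes tested. Without LPS the groups' values did not overlap for 20 genes that were higher and 8 that were lower in unshielded mice, where 14.2% and 19.4% of all genes did not overlap in these directions. After LPS the values of 22 higher and 6 lower genes did not overlap, where the shares of all genes were 21.8% and 27.6%. Of the 32 genes, 23 were higher and 8 lower in unshielded mice in both conditions, and Lilra5 was the gene of mixed direction. These are bulk measurements of sorted cells, so fewer cells of a type and less RNA per cell cannot be told apart.

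**Figure D1:**
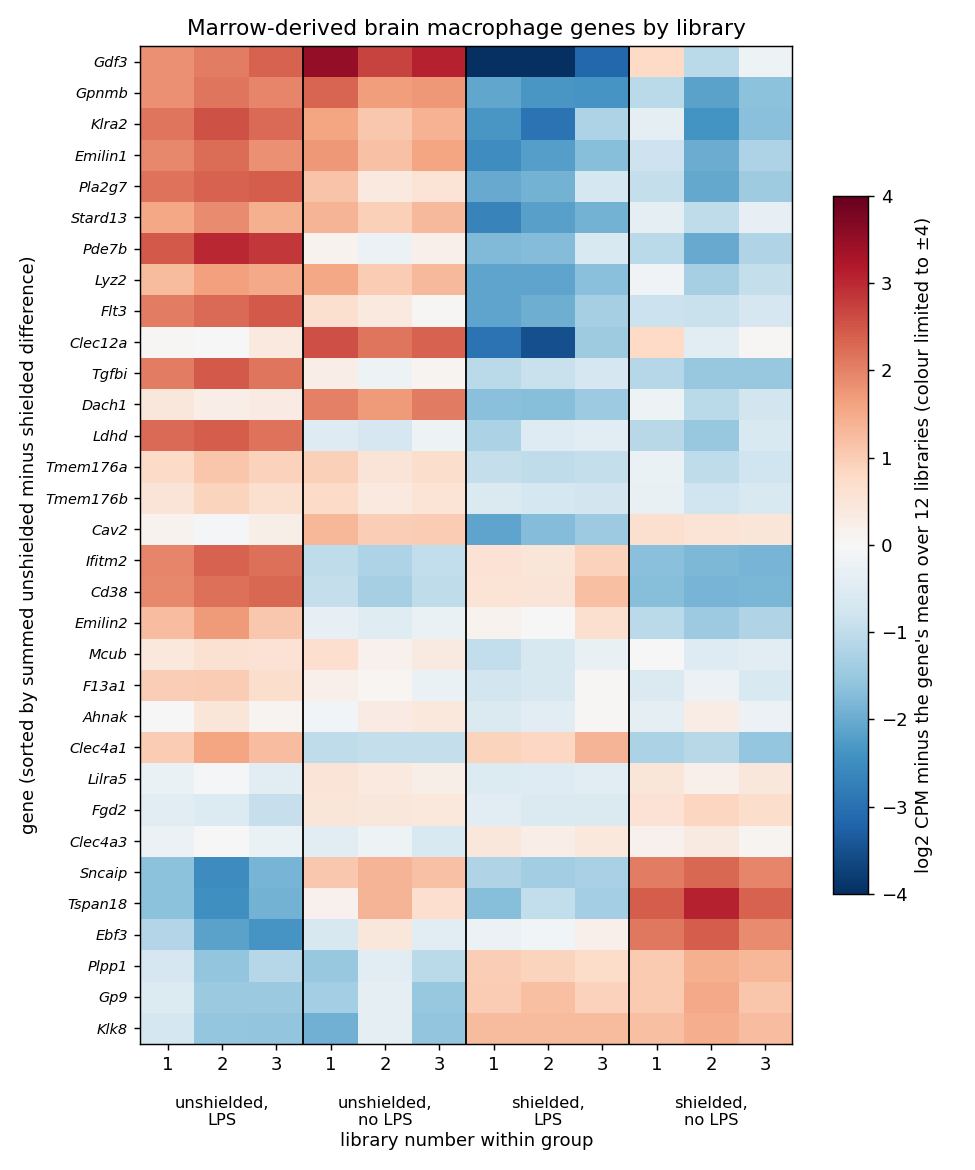
Level of each of the 32 genes (rows) in each of the 12 libraries (columns), as log2 CPM minus the gene's mean over all libraries, with colours limited to 4 log2 units either way. The upper 10 genes are higher in all 6 unshielded libraries than in the shielded LPS libraries. In the lowest rows, Plpp1, Gp9 and Klk8 are lower in all 6 unshielded libraries than in any shielded library. Sncaip, Tspan18 and Ebf3, also in the lowest rows, are lower in unshielded than in shielded libraries without LPS. Shielded library 1 without LPS is redder than libraries 2 and 3 in most rows of the upper part.

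The receptor genes encode C-type lectins and immunoglobulin-like receptors of myeloid cells, and 4 of the 5 lie on chromosome 6. Clec12a encodes an inhibitory lectin that senses uric acid crystals from dead cells. It had 27.12, 26.02 and 34.09 CPM in unshielded LPS libraries and 155.2, 114.1 and 135.1 CPM in unshielded libraries without LPS, and 3.35, 2.22 and 9.61 CPM in shielded LPS libraries against 45.5, 19.1 and 26.9 CPM in shielded libraries without LPS. Each LPS group lay wholly below its own group without LPS, and LPS lowered Clec12a in unshielded mice by a log2 fold change of -2.21 ± 0.42 (edgeR adjusted p = 0.00166) and in shielded mice by -2.58 ± 0.46 (edgeR adjusted p = 0.000582). Without shielded LPS library 3, which held most of the group's Clec12a, the log2 fold change in shielded mice was -3.41. Clec12a was higher in unshielded mice by 2.14 ± 0.42 without LPS and by 2.51 ± 0.46 after LPS on the log2 scale, the second being 3.30 without shielded LPS library 3.

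Klra2, the Ly49B receptor of the Ly49 family, showed the widest gap by shield among the receptors. It had 198.8, 266.7 and 215.5 CPM in unshielded LPS libraries and 134.2, 95.7 and 118.5 CPM in unshielded libraries without LPS, but 8.98, 5.82 and 19.3 CPM in shielded LPS libraries and 34.2, 8.53 and 14.2 CPM in shielded libraries without LPS. The unshielded LPS values all lay above those without LPS, while the shielded groups overlapped. The log2 fold changes with LPS, 0.97 ± 0.46 in unshielded mice and -0.74 ± 0.49 in shielded mice, did not pass the test (edgeR adjusted p = 0.115 and 0.2). In shielded mice the value turned on library 1 without LPS, since it was 0.00 without that library, and -1.58 (edgeR adjusted p = 0.0279) without libraries 2 and 3. It also passed without shielded LPS library 3, at -1.33 (edgeR adjusted p = 0.0393). The difference of Klra2 between unshielded and shielded mice was 2.61 ± 0.49 without LPS and 4.31 ± 0.54 after LPS. The first of these was 3.34 without shielded library 1 and 1.76 without libraries 2 and 3.

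The other receptors differed little by shield. Clec4a1, a lectin of the DCIR and DCAR cluster, had 33.6, 49.7 and 39.5 CPM in unshielded LPS libraries and 8.141, 8.523 and 8.502 CPM in unshielded libraries without LPS, and 30.8, 29.6 and 42.9 CPM in shielded LPS libraries against 6.83, 7.63 and 5.63 CPM in shielded libraries without LPS. It rose with LPS by a log2 fold change of 2.29 ± 0.18 (edgeR adjusted p = 1.17e-06) in unshielded mice and 2.37 ± 0.18 (edgeR adjusted p = 3.08e-07) in shielded mice, with no overlap in either. The difference of these effects was -0.08 on the log2 scale. Its neighbour in that cluster, Clec4a3, averaged 35.7 ± 3.29 CPM in unshielded LPS libraries, 30.3 ± 4.29 in unshielded libraries without LPS, 52.6 ± 3.41 in shielded LPS libraries and 46.7 ± 3.98 in shielded libraries without LPS (SD, n = 3 each). It was thus called lower in unshielded mice, by -0.63 without LPS and -0.56 after LPS, and did not pass the test with LPS in either kind of mouse (edgeR adjusted p = 0.0962 and 0.178). Lilra5, an activating receptor of the leukocyte immunoglobulin-like family, had 20.01 to 25.63 CPM in unshielded LPS libraries and 32.3 to 39.2 in unshielded libraries without LPS, and 18.5 to 19.8 in shielded LPS libraries against 31.5 to 38.3 in shielded libraries without LPS. It fell with LPS by a log2 fold change of -0.65 (edgeR adjusted p = 0.000475) in unshielded mice and -0.91 (edgeR adjusted p = 1.63e-05) in shielded mice. None of Clec4a1, Clec4a3, Klra2 and Lilra5 shared a stretch of 50 bases with another gene in the reference transcripts.

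Among 9 genes for enzymes, membrane channels and other effectors of macrophages, all 9 were called higher in unshielded mice after LPS and 8 without LPS, where 19.1% and 3.98% of all genes were, in the comparisons that the choice of genes had used. Lyz2 encodes lysozyme M, which cleaves bacterial cell walls and is made in bulk by monocytes and macrophages. It had 6777, 8712 and 8089 CPM in unshielded LPS libraries and 8286, 5688 and 6946 CPM in unshielded libraries without LPS, which overlapped, and 658.1, 655.7 and 893.6 CPM in shielded LPS libraries against 2564, 1122 and 1447 CPM in shielded libraries without LPS, which did not. With LPS its log2 fold change was 0.17 ± 0.26 (edgeR adjusted p = 0.612) in unshielded mice, and it fell by a log2 fold change of -1.22 ± 0.27 (edgeR adjusted p = 0.00196) in shielded mice. The LPS effect in unshielded mice minus that in shielded mice was 1.39 ± 0.38. Differences of this kind are given here and below without a test, since each equals the shield difference after LPS minus that without LPS and the choice of genes had used both. Its near copy Lyz1 shares 15.4% of the 50-base stretches of Lyz2 and averaged 3.88 CPM in unshielded LPS libraries, 4.08 in unshielded libraries without LPS, 0.321 in shielded LPS libraries and 0.964 in shielded libraries without LPS.

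Gpnmb, a glycoprotein of lipid-laden and phagocytic macrophages, differed widely by shield. It had 64.9, 81.1 and 70.7 CPM in unshielded LPS libraries and 93.4, 58.6 and 60.9 CPM in unshielded libraries without LPS, and 4.31, 3.64 and 3.52 CPM in shielded LPS libraries against 8.69, 4.14 and 5.83 CPM in shielded libraries without LPS. The difference between unshielded and shielded mice was 3.50 ± 0.26 without LPS and 4.24 ± 0.27 after LPS on the log2 scale. With LPS, Gpnmb had a log2 fold change of 0.02 ± 0.23 (edgeR adjusted p = 0.941) in unshielded mice and -0.71 ± 0.27 (edgeR adjusted p = 0.0344) in shielded mice. The shielded call depended on which libraries were in the fit. With shielded no-LPS library 1 left out the log2 fold change was -0.38 (edgeR adjusted p = 0.173), and 5 other libraries, left out in turn, gave an adjusted p of 0.0509 to 0.105.

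Ifitm2 and Cd38 rose with LPS in both kinds of mice. Ifitm2, an interferon-induced membrane protein that hinders the entry of viruses, had 236.5, 318.8 and 286.6 CPM in unshielded LPS libraries and 30.7, 26.3 and 31.2 CPM in unshielded libraries without LPS. In shielded mice it had 92.7, 86.2 and 116.5 CPM with LPS and 19.4, 17.7 and 16.9 CPM without. No values overlapped, and the log2 fold changes with LPS were 3.25 ± 0.14 (edgeR adjusted p = 3.07e-08) in unshielded mice and 2.45 ± 0.14 (edgeR adjusted p = 4.63e-08) in shielded mice. The effects differed by 0.80 ± 0.19. In the reference, 48.5% of the 50-base stretches of Ifitm2 are shared with other genes, and 36.1% with Gm45717 on the same strand, so the counts of Ifitm2 are uncertain. No row of the count table matched the symbol Gm45717. Cd38, an ectoenzyme that consumes NAD, had 71.6, 85.9 and 92.3 CPM in unshielded LPS libraries and 9.71, 7.37 and 9.17 CPM in unshielded libraries without LPS, and 27.6, 26.7 and 43.7 CPM in shielded LPS libraries against 5.71, 5.11 and 5.27 CPM in shielded libraries without LPS. It rose by a log2 fold change of 3.24 ± 0.19 (edgeR adjusted p = 2.28e-07) in unshielded mice and 2.60 ± 0.19 (edgeR adjusted p = 2.92e-07) in shielded mice. The effects differed by 0.64 ± 0.26, and by 0.84 without shielded LPS library 3, the library with the highest Cd38 of that group.

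Pla2g7 and Ldhd rose with LPS in unshielded mice and were not called in shielded mice. Pla2g7, the secreted phospholipase that inactivates platelet-activating factor, had 298.3, 339.1 and 354.7 CPM in unshielded LPS libraries and 145.3, 87.1 and 97.4 CPM in unshielded libraries without LPS. It had 16.5, 17.9 and 41.0 CPM in shielded LPS libraries and 34.1, 16.1 and 24.7 CPM in shielded libraries without LPS, which overlapped. The log2 fold changes with LPS were 1.59 ± 0.36 (edgeR adjusted p = 0.00431) in unshielded mice and 0.01 ± 0.36 (edgeR adjusted p = 0.989) in shielded mice. They differed by 1.58 ± 0.50, and by 2.07 without shielded LPS library 3. Ldhd, the mitochondrial D-lactate dehydrogenase, had 38.5, 42.6 and 35.5 CPM in unshielded LPS libraries and 5.52, 4.96 and 6.95 CPM in unshielded libraries without LPS, and 3.26, 5.58 and 5.73 CPM in shielded LPS libraries against 3.64, 2.71 and 5.18 CPM in shielded libraries without LPS. With LPS, Ldhd had a log2 fold change of 2.74 ± 0.25 in unshielded mice and 0.32 ± 0.25 in shielded mice. The second was 0.61 and called without library 3 without LPS. Ldhd was among the 10 largest differences of LPS effects by shield, so its LPS effects are given without p. Ldhd shares 40.2% of its 50-base stretches with Znrf1 on the opposite strand, and Znrf1 had log2 fold changes with LPS of 1.86 in unshielded and 1.01 in shielded mice, so reads of this pair cannot be told apart without the strand setting of the counting.

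The remaining effectors moved little with LPS. Tmem176a and Tmem176b are related cation channels of antigen-presenting cells that lie side by side on chromosome 6 and share an exon region on opposite strands. Tmem176a had 448.5 to 571.7 CPM in unshielded LPS libraries, 379.3 to 509.8 in unshielded libraries without LPS, 131.3 to 134.8 in shielded LPS libraries and 129.7 to 221.2 in shielded libraries without LPS. Tmem176b had 689.1 to 899.2 CPM in unshielded LPS libraries, 640.4 to 829.9 in unshielded libraries without LPS, 291.4 to 326.1 in shielded LPS libraries and 277.4 to 393.8 in shielded libraries without LPS. Neither passed the test with LPS. Tmem176a had a log2 fold change of 0.20 (edgeR adjusted p = 0.364) in unshielded and -0.32 (edgeR adjusted p = 0.116) in shielded mice. For Tmem176b it was 0.11 (edgeR adjusted p = 0.567) in unshielded and -0.11 (edgeR adjusted p = 0.516) in shielded mice. Tmem176a did pass in shielded mice without library 2 without LPS, at -0.47 (edgeR adjusted p = 0.029), and without libraries 2 and 3, at -0.72 (edgeR adjusted p = 0.00773). Mcub, an inhibitory subunit of the mitochondrial calcium uniporter, had 9.55 to 11.1 CPM in unshielded LPS libraries, 8.14 to 11.5 in unshielded libraries without LPS, 3.62 to 5.76 in shielded LPS libraries and 5.04 to 7.26 in shielded libraries without LPS. Its log2 fold change was 0.12 (edgeR adjusted p = 0.633) in unshielded and -0.34 (edgeR adjusted p = 0.148) in shielded mice, the second passing without shielded LPS library 3 (-0.50, edgeR adjusted p = 0.0416).

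**Figure D2:**
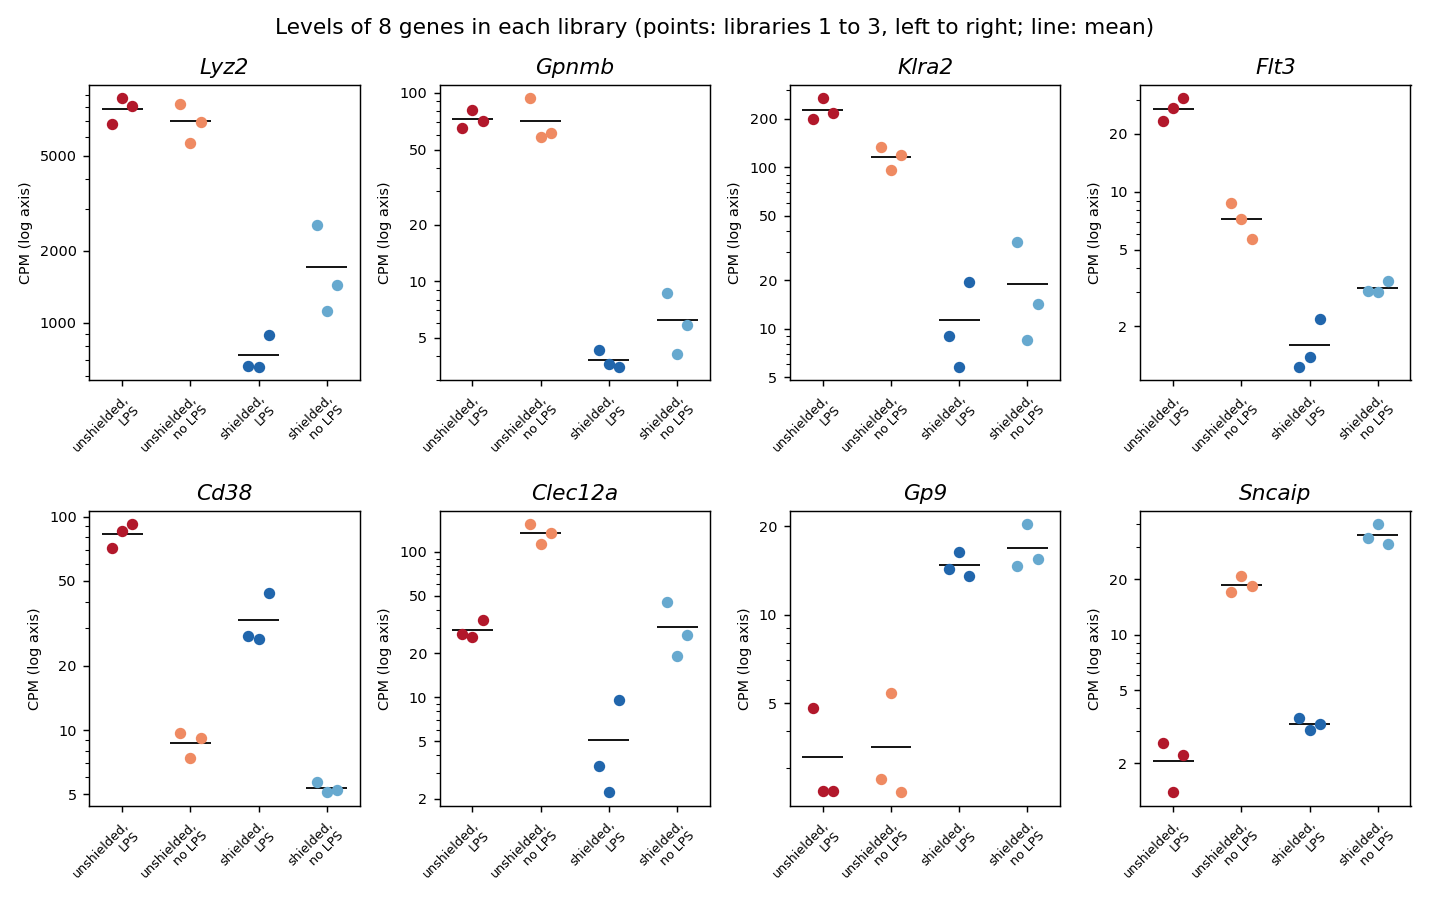
Level of 8 genes in each library in CPM on log axes, with points for libraries 1 to 3 from left to right and a line at the group mean. Lyz2, Gpnmb and Klra2 lie high in both unshielded groups, Flt3 moves up with LPS in unshielded and down in shielded mice, Cd38 rises and Clec12a and Sncaip fall with LPS in both, and Gp9 is low in both unshielded groups.

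The matrix, coagulation and surface group fell apart into genes that were higher and genes that were lower in unshielded mice. Tgfbi, a secreted matrix protein induced by TGF-beta, had 1843, 2454 and 1966 CPM in unshielded LPS libraries and 545.1, 392.3 and 485.8 CPM in unshielded libraries without LPS, and 213.1, 240.5 and 278.9 CPM in shielded LPS libraries against 205.7, 156.1 and 158.2 CPM in shielded libraries without LPS. LPS values lay above those without LPS in both kinds of mice. The log2 fold changes were 2.14 ± 0.17 (edgeR adjusted p = 1.2e-06) in unshielded and 0.49 ± 0.16 (edgeR adjusted p = 0.017) in shielded mice, and they differed by 1.64 ± 0.23. The shielded call was lost without library 2 (0.43, edgeR adjusted p = 0.0606) or library 3 without LPS (0.45, edgeR adjusted p = 0.0549), and without both it was 0.25 (edgeR adjusted p = 0.393). F13a1, the A subunit of coagulation factor XIII, had 236.5, 241.5 and 194.0 CPM in unshielded LPS libraries and 139.0, 125.7 and 100.4 CPM in unshielded libraries without LPS, and 72.3, 76.7 and 123.1 CPM in shielded LPS libraries against 80.4, 102.4 and 78.4 CPM in shielded libraries without LPS. It rose in unshielded mice (log2 fold change 0.88 ± 0.20, edgeR adjusted p = 0.00385) and had 0.06 ± 0.20 (edgeR adjusted p = 0.797) in shielded mice, whose groups overlapped. The effects differed by 0.82 ± 0.28, and by 1.05 without shielded LPS library 3.

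Emilin1 and Emilin2 encode glycoproteins of elastic fibres, and the pair went different ways. Emilin1 had 89.9, 110.6 and 83.3 CPM in unshielded LPS libraries and 78.4, 53.0 and 70.2 CPM in unshielded libraries without LPS, and 4.22, 5.11 and 7.17 CPM in shielded LPS libraries against 13.4, 5.946 and 10.03 CPM in shielded libraries without LPS. It differed by shield by 2.77 ± 0.28 without LPS and 4.10 ± 0.30 after LPS on the log2 scale. With LPS it had a log2 fold change of 0.49 ± 0.26 (edgeR adjusted p = 0.146) in unshielded mice and -0.84 ± 0.29 (edgeR adjusted p = 0.0231) in shielded mice. In shielded mice the values overlapped, and the fold change was -0.55 (edgeR adjusted p = 0.101) with shielded no-LPS library 1 left out and an edgeR adjusted p of 0.0639 with the replicate number as a block. Emilin2 had 75.5, 105.4 and 68.4 CPM in unshielded LPS libraries and 25.7, 22.8 and 26.8 CPM in unshielded libraries without LPS, and 35.39, 31.97 and 50.08 CPM in shielded LPS libraries against 15.1, 11.8 and 14.0 CPM in shielded libraries without LPS. It rose with LPS without overlap, by 1.73 ± 0.19 (edgeR adjusted p = 2.23e-05) in unshielded mice and 1.52 ± 0.19 (edgeR adjusted p = 2.88e-05) in shielded mice on the log2 scale.

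Cav2, a caveolin of the membrane pits called caveolae, fell with LPS in both kinds of mice. It had 12.8, 11.1 and 13.6 CPM in unshielded LPS libraries and 29.3, 23.3 and 23.4 CPM in unshielded libraries without LPS, and 2.65, 3.48 and 4.23 CPM in shielded LPS libraries against 18.3, 17.0 and 16.3 CPM in shielded libraries without LPS. The log2 fold changes were -1.02 ± 0.15 (edgeR adjusted p = 0.000153) in unshielded and -2.32 ± 0.16 (edgeR adjusted p = 1.76e-07) in shielded mice, and their difference was 1.30 ± 0.22. Tspan18, a tetraspanin, was among the 10 genes with the largest falls in both LPS comparisons and is given without a test. It had 1.68, 0.916 and 1.40 CPM in unshielded LPS libraries and 5.93, 13.7 and 8.39 CPM in unshielded libraries without LPS, and 1.60, 2.65 and 2.02 CPM in shielded LPS libraries against 28.5, 45.4 and 27.4 CPM in shielded libraries without LPS. The shielded libraries without LPS all lay above the other 9.

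Gp9 and Klk8 were higher in every shielded library than in any unshielded one. Gp9, known as glycoprotein IX of the platelet von Willebrand factor receptor, had 4.812, 2.514 and 2.499 CPM in unshielded LPS libraries and 2.76, 5.39 and 2.48 CPM in unshielded libraries without LPS, and 14.4, 16.4 and 13.5 CPM in shielded LPS libraries against 14.7, 20.4 and 15.5 CPM in shielded libraries without LPS. Klk8, the secreted serine protease neuropsin, had 17.4, 9.59 and 9.51 CPM in unshielded LPS libraries and 7.43, 21.8 and 9.57 CPM in unshielded libraries without LPS, and 68.2, 68.9 and 69.0 CPM in shielded LPS libraries against 65.0, 78.2 and 66.9 CPM in shielded libraries without LPS. Unshielded LPS library 1 and unshielded library 2 without LPS were the highest of their groups for both genes. Neither gene passed the test with LPS: Gp9 had a log2 fold change of -0.08 (edgeR adjusted p = 0.851) in unshielded and -0.19 (edgeR adjusted p = 0.578) in shielded mice, and Klk8 had -0.05 (edgeR adjusted p = 0.911) and -0.03 (edgeR adjusted p = 0.947). Beside Gp9, the platelet markers Gp5, Gp6 and Ppbp stayed at or below 0.370 CPM in every library, but others were higher. Gp1ba and Gp1bb averaged 2.64 and 1.30 CPM in unshielded LPS libraries and 1.72 and 2.26 in unshielded libraries without LPS. They averaged 1.69 and 0.664 CPM in shielded LPS libraries and 2.06 and 1.82 in shielded libraries without LPS. The 10 platelet markers together, Gp9 included, summed to 55.2 to 60.3 CPM in unshielded LPS libraries and 68.8 to 80.4 in unshielded libraries without LPS. In shielded mice they summed to 26.1 to 31.3 CPM with LPS and 42.0 to 46.2 without. In the unshielded libraries most of that sum was Pf4, platelet factor 4, which is also among the macrophage lists used here. Pf4 averaged 46.8 CPM in unshielded LPS libraries and 61.5 in unshielded libraries without LPS. It averaged 8.02 CPM in shielded LPS libraries, where Gp9 averaged 14.8. In shielded libraries without LPS, Pf4 averaged 19.7 CPM and Gp9 16.8. Without Pf4 and Gp9 the other 8 platelet markers summed to 7.68 to 9.49 CPM in unshielded LPS libraries, 8.03 to 8.44 in unshielded libraries without LPS, 5.97 to 6.96 in shielded LPS libraries and 7.41 to 7.92 in shielded libraries without LPS. Klk8 shares 21.7% of its 50-base stretches with a gene on the opposite strand whose group means were at or below 0.342 CPM.

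Of the 10 genes for signalling, the cytoskeleton and transcription, 7 were called lower with LPS in shielded mice, where 35.1% of all genes were, and Flt3 changed in opposite directions. Flt3, the receptor for the Flt3 ligand on blood progenitors and dendritic cells, had 23.2, 27.1 and 30.5 CPM in unshielded LPS libraries and 8.76, 7.22 and 5.68 CPM in unshielded libraries without LPS, and 1.24, 1.39 and 2.18 CPM in shielded LPS libraries against 3.04, 3.01 and 3.45 CPM in shielded libraries without LPS. No values overlapped. With LPS, Flt3 had a log2 fold change of 1.90 ± 0.20 in unshielded mice and -0.98 ± 0.22 in shielded mice. Flt3 was among the 10 largest differences of LPS effects by shield, so these values are given without p. The fall in shielded mice was -0.53 and was not called with the level of neuron and oligodendrocyte markers as a covariate. Of the 10 dendritic cell markers, Flt3 included, 2 were called higher and 6 lower with LPS in unshielded mice, and 1 higher and 6 lower in shielded mice. The shares of all genes were 24.3% higher and 18.8% lower in unshielded mice, and 32.4% and 35.1% in shielded mice. The 10 markers summed to 54.3 to 68.7 CPM in unshielded LPS libraries, 37.6 to 41.4 in unshielded libraries without LPS, 55.2 to 78.7 in shielded LPS libraries and 36.5 to 48.8 in shielded libraries without LPS. The higher sums with LPS were those of Flt3 and Ccr7 in unshielded mice, and of Ccr7 in shielded mice, where Flt3 fell. Ccr7, the chemokine receptor of migrating dendritic cells, averaged 20.5 CPM in unshielded LPS libraries and 1.15 in unshielded libraries without LPS. In shielded mice Ccr7 averaged 38.3 CPM with LPS and 1.19 without. The other 8 markers summed to 13.4 to 14.0 CPM in unshielded LPS libraries, 30.1 to 32.7 in unshielded libraries without LPS, 21.3 to 26.7 in shielded LPS libraries and 32.3 to 44.1 in shielded libraries without LPS. The part of dendritic cells in the change of Flt3 was not tested.

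Pde7b, a cAMP phosphodiesterase, had 59.4, 88.0 and 76.2 CPM in unshielded LPS libraries and 11.7, 9.10 and 12.4 CPM in unshielded libraries without LPS, and 3.14, 3.21 and 7.04 CPM in shielded LPS libraries against 5.04, 2.65 and 4.66 CPM in shielded libraries without LPS. With LPS, Pde7b had a log2 fold change of 2.74 ± 0.31 in unshielded mice, and the shielded groups overlapped (0.10 ± 0.33). Stard13, a protein with a lipid-binding START domain, had 26.5, 33.6 and 24.2 CPM in unshielded LPS libraries and 22.9, 17.3 and 22.2 CPM in unshielded libraries without LPS, and 1.36, 1.94 and 2.37 CPM in shielded LPS libraries against 7.004, 4.427 and 7.128 CPM in shielded libraries without LPS. With LPS, Stard13 had -1.72 ± 0.24 in shielded mice and 0.43 ± 0.21 in unshielded mice. Pde7b and Stard13 were among the 10 largest differences of LPS effects by shield, so their LPS effects are given without p. Dach1, a transcriptional cofactor, had 10.3, 9.01 and 9.44 CPM in unshielded LPS libraries and 30.2, 24.3 and 31.7 CPM in unshielded libraries without LPS, and 2.32, 2.26 and 2.72 CPM in shielded LPS libraries against 6.55, 3.52 and 4.46 CPM in shielded libraries without LPS. It fell in both, by -1.59 ± 0.19 (edgeR adjusted p = 2.99e-05) in unshielded and -0.999 ± 0.205 (edgeR adjusted p = 0.00104) in shielded mice.

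Gdf3, a ligand of the TGF-beta family, was all but missing from shielded mice given LPS. Its raw counts were 830, 870 and 1153 in unshielded LPS libraries and 2081, 562 and 1216 in unshielded libraries without LPS, and 0, 1 and 13 in shielded LPS libraries against 332, 59 and 165 in shielded libraries without LPS. In CPM it had 14.8, 17.0 and 21.5 in unshielded LPS libraries and 47.5, 27.1 and 35.1 in unshielded libraries without LPS, and 7.16, 1.91 and 3.58 in shielded libraries without LPS. LPS and no-LPS values did not overlap in either kind of mouse. The fitted log2 differences of Gdf3 were the largest among the 32 genes after LPS, 6.80 ± 0.72 for unshielded over shielded mice, but with so few reads they moved with the libraries in the fit, to 9.72 without shielded LPS library 3 and 6.12 without library 1. The fitted LPS effect in shielded mice was -4.75, -7.71 without shielded LPS library 3 and -4.11 without library 1. In unshielded mice LPS gave -1.04 ± 0.45, which was not called. It was called without shielded LPS library 1 or 3 or shielded library 1 without LPS in the model. Gdf3 was among the 10 largest differences of LPS effects by shield, so its LPS effects are given without p.

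Fgd2, an exchange factor for Cdc42, fell with LPS in both kinds of mice and hardly differed by shield. It had 160.1 to 227.4 CPM in unshielded LPS libraries and 409.5 to 426.3 in unshielded libraries without LPS, and 203.3 to 229.0 in shielded LPS libraries against 460.0 to 552.9 in shielded libraries without LPS. Its log2 fold changes were -1.07 ± 0.12 (edgeR adjusted p = 2.51e-05) in unshielded and -1.25 ± 0.12 (edgeR adjusted p = 2.87e-06) in shielded mice. Ahnak, a very large scaffold protein, had 30.3 to 42.0 CPM in unshielded LPS libraries, 27.7 to 40.1 in unshielded libraries without LPS, 19.8 to 30.9 in shielded LPS libraries and 23.5 to 36.8 in shielded libraries without LPS, with overlap between all groups and no change past the test with LPS (edgeR adjusted p = 0.972 in unshielded and 0.371 in shielded mice).

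Ebf3, Plpp1 and Sncaip were lower in unshielded mice. Ebf3, a transcription factor of the early B cell factor family, had 3.64, 1.81 and 1.57 CPM in unshielded LPS libraries and 5.25, 11.3 and 6.02 CPM in unshielded libraries without LPS, and 7.02, 7.64 and 9.45 CPM in shielded LPS libraries against 35.5, 44.5 and 30.4 CPM in shielded libraries without LPS. It fell with LPS by -1.66 ± 0.35 (edgeR adjusted p = 0.00282) in unshielded and -2.19 ± 0.34 (edgeR adjusted p = 0.000182) in shielded mice on the log2 scale. Sncaip, or synphilin-1, a partner of alpha-synuclein, had 2.58, 1.38 and 2.22 CPM in unshielded LPS libraries and 17.1, 20.8 and 18.5 CPM in unshielded libraries without LPS, and 3.53, 3.05 and 3.27 CPM in shielded LPS libraries against 33.5, 40.1 and 31.2 CPM in shielded libraries without LPS. Its fall in shielded mice was -3.41 ± 0.19 (edgeR adjusted p = 4.48e-08); the fall in unshielded mice, -3.18 ± 0.19, was among the 10 largest and is given without a test. Plpp1, a phosphatase of lipid phosphates at the cell surface, had 5.302 to 9.998 CPM in unshielded LPS libraries, 5.518 to 12.04 in unshielded libraries without LPS, 26.4 to 31.9 in shielded LPS libraries and 33.0 to 43.1 in shielded libraries without LPS. Its log2 fold change with LPS was -0.14 (edgeR adjusted p = 0.706) in unshielded mice and -0.40 (edgeR adjusted p = 0.187) in shielded mice, the second passing with the replicate number as a block (edgeR adjusted p = 0.0266). Plpp1 shares 23.1% of its 50-base stretches with Mtrex on the opposite strand.

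Counted together, the 32 genes went different ways with LPS. In unshielded mice 10 were called higher and 8 lower, or 31.2% and 25%, where 24.3% of all genes were called higher and 18.8% lower (43.1% in either direction). In shielded mice 5 were called higher and 14 lower, or 15.6% and 43.8%, where 32.4% of all genes were called higher and 35.1% lower (67.5% in either direction). Their median log2 fold change was 0.15 in unshielded and -0.37 in shielded mice, against -0.06 and -0.14 over all genes tested. The values did not overlap for 13 higher and 9 lower genes in unshielded mice, where the shares of all genes were 29.6% and 31.7%, and for 5 higher and 13 lower genes in shielded mice, where they were 34.1% and 35.7%. The genes called higher in both kinds of mice were Clec4a1, Ifitm2, Cd38, Tgfbi and Emilin2, and 8 were called lower in both: Clec12a, Lilra5, Tspan18, Cav2, Fgd2, Dach1, Ebf3 and Sncaip. Another 4 (Pla2g7, Ldhd, F13a1 and Pde7b) were called higher in unshielded mice and in shielded mice did not pass, and 5 (Lyz2, Gpnmb, Emilin1, Gdf3 and Stard13) were called lower in shielded mice and in unshielded mice did not pass. These LPS comparisons share all their libraries with the shield comparisons that the choice of genes used.

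The difference of the LPS effects by shield was called for 10 of the 32 genes (Lyz2, Ifitm2, Ldhd, Tgfbi, Emilin1, Cav2, Gdf3, Flt3, Pde7b and Stard13), all towards a higher LPS effect in unshielded mice, where 4.06% of all genes were called in that direction and 9.25% in the other (13.3% in either). The differences of these 10 ran from 0.80 for Ifitm2 to 3.70 for Gdf3 on the log2 scale. They are a description, and no support for a difference, since the choice of genes used the values they are made of. Without the libraries with conflicting labels, Ifitm2, Cav2 and Gdf3 were no longer called. The median difference over the 32 genes was 0.58, against 0.08 over all genes. In shielded mice, markers of neurons and oligodendrocytes also fell with LPS, 8 of 9 and 8 of 8 being called lower, while 0 of 9 and 1 of 8 were called lower in unshielded mice. The shares of all genes called lower were 35.1% in shielded and 18.8% in unshielded mice. With the mean level of these markers as a covariate, 8 of the 32 genes were called lower with LPS in shielded mice in place of 14. Clec12a was then at an edgeR adjusted p of 0.0968, Lyz2 at 0.14 and Dach1 at 0.0884, and Flt3 was not called. The part of these markers in the result was not tested further.

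**Figure D3:**
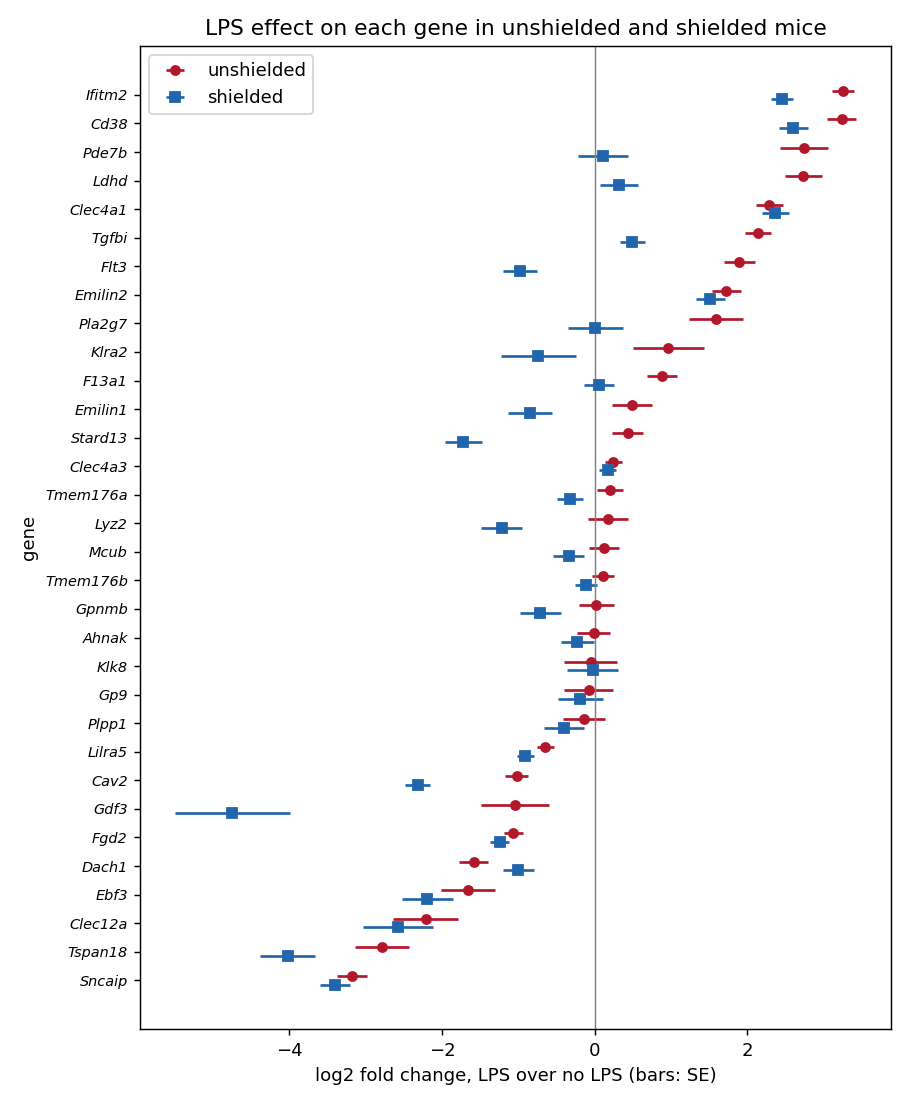
Log2 fold change of each of the 32 genes with LPS (LPS over no LPS) in unshielded mice (red circles) and shielded mice (blue squares), with bars for the standard error, sorted by the unshielded value. The red symbol lies well to the right of the blue for Pde7b, Ldhd, Tgfbi, Flt3, Stard13, Lyz2, Cav2 and Gdf3, while for Clec4a1, Emilin2, Klk8 and Gp9 the symbols lie close together.

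The shielded libraries without LPS were uneven. As a percentage of the mean of the unshielded libraries without LPS, shielded libraries 1, 2 and 3 held 36.8%, 16.1% and 20.8% for Lyz2, 33.74%, 14.19% and 19.95% for Clec12a and 29.5%, 7.35% and 12.2% for Klra2. They held 12.2%, 5.83% and 8.22% for Gpnmb, 19.6%, 5.22% and 9.79% for Gdf3 and 31.0%, 14.6% and 22.4% for Pla2g7. Library 1 was the highest and library 2 the lowest for each of these 6 genes. Of the 32 genes, 18 (56.2%) were highest in library 1, 11 in library 2 and 3 in library 3, where 27.1%, 35.1% and 37.8% of all genes were. Lowest were 5 genes in library 1, 19 in library 2 and 8 in library 3, where the shares of all genes were 27.5%, 34.4% and 38.1%. Of the 19 genes called higher in unshielded mice in both conditions, 17 were highest in library 1 and 17 lowest in library 2, and all 6 genes called lower in both were highest in library 2. Apoe and Ms4a7 were highest in library 1 and lowest in library 2, and the microglial gene Sall1 was lowest in library 1 and highest in library 2. Apoe, the lipid carrier apolipoprotein E, was at 32.6%, 9.01% and 15.8% and Ms4a7 at 28.5%, 8.71% and 13.4% of the unshielded mean in libraries 1, 2 and 3, while Sall1 was at 396.4%, 590.0% and 421.0%. Other marker lists were uneven as well. Neutrophil markers averaged 4.21, 3.36 and 3.47 log2 CPM in libraries 1, 2 and 3, and monocyte markers 2.84, 2.40 and 2.33. Endothelial markers went the other way, at 4.21, 4.93 and 4.57. The part of these cells in the order was not tested.

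Across the 32 genes, the excess of library 1 over the mean of libraries 2 and 3 went with the difference between unshielded and shielded mice after LPS, which uses none of these 3 libraries. Pearson's r was 0.759 and Spearman's rank correlation 0.773 over the 32 genes, and -0.0606 and -0.0837 over all 18875 genes tested. The points share 3 libraries and the choice of genes, so these are descriptions. The median excess of library 1 was 0.16 log2 units over the 32 genes and -0.00 over all genes. Library 1 is also the library of this group whose title and treatment field do not conflict. Among shielded LPS libraries, library 3 was the highest for 23 of the 32 genes, library 1 for 7 and library 2 for 2, where library 3 was the highest for 37.9% of all genes. Its excess over libraries 1 and 2 went with the shield difference without LPS at an r of 0.543 (rank correlation 0.526), against 0.154 over all genes. Library 3 also had the highest neuron and oligodendrocyte markers of that group, 164.9 and 1322 summed CPM, against 34.2 and 425.4 in library 1 and 60.9 and 923.9 in library 2. Their part in the order was not tested.

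**Figure D4:**
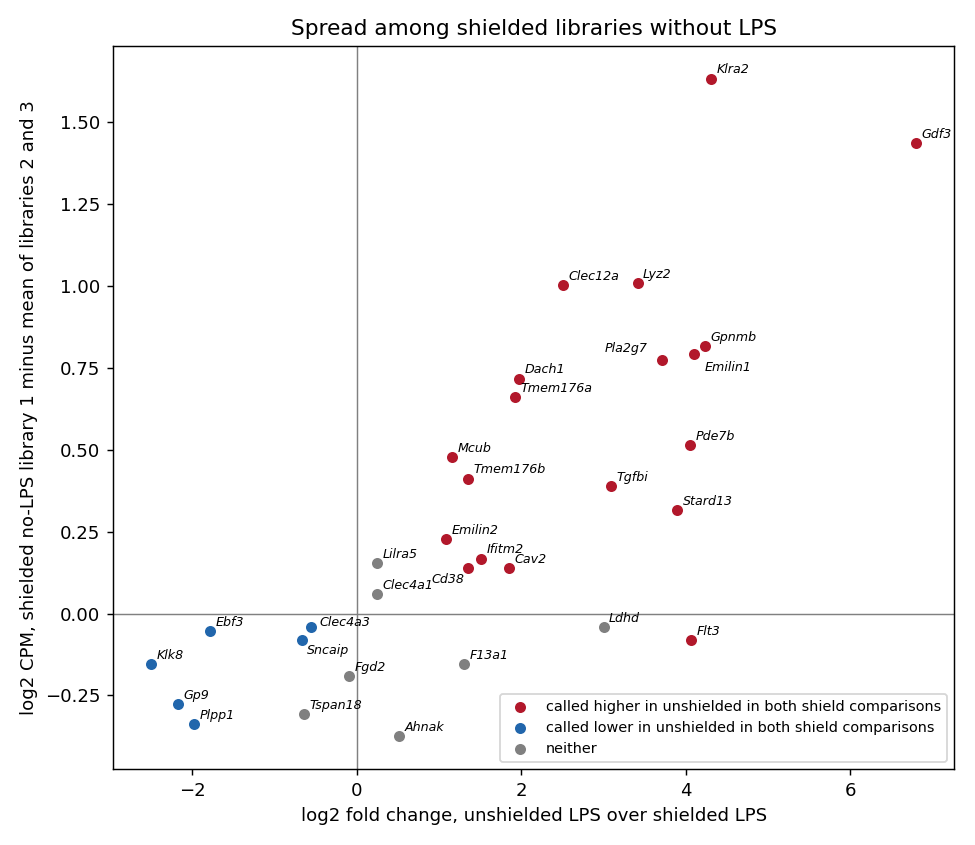
Each point is a gene: the horizontal axis is the log2 fold change of unshielded LPS over shielded LPS libraries, and the vertical axis is log2 CPM in shielded library 1 without LPS minus the mean of shielded libraries 2 and 3 without LPS. The genes called higher in unshielded mice (red) run up to the right, with Klra2 and Gdf3 at the top, Flt3 is the red point below 0, and the 6 genes called lower in unshielded mice (blue) all lie below 0.

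The unshielded libraries varied in the same way, a pattern looked for after the values were seen. Without LPS, unshielded library 2 was the lowest for 18 of the 19 genes called higher in unshielded mice and the highest for all 6 genes called lower, where 30.7% of all genes were lowest and 34.5% highest in it. With LPS, unshielded library 1 was the lowest for 13 of the 19 and the highest for 5 of the 6, where 28.6% of all genes were lowest and 29.1% highest. Sall1 followed the 6 genes, with 51.79, 32.02 and 24.67 CPM in unshielded LPS libraries 1, 2 and 3 and 66.0, 196.5 and 93.8 CPM in unshielded libraries 1, 2 and 3 without LPS. Unshielded library 2 without LPS was also the shallowest of all libraries, and the part of depth was not tested. Unshielded LPS library 1 had the highest summed neutrophil markers of its group, 1296 CPM against 699.3 and 526.0 in libraries 2 and 3. Their part was not tested. The range between the 3 libraries of a group had a median of 0.41 log2 units over the 32 genes in unshielded LPS libraries, 0.47 in unshielded libraries without LPS, 0.59 in shielded LPS libraries and 0.51 in shielded libraries without LPS. Over all genes it was 0.38, 0.27, 0.45 and 0.31 in the same groups.

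Further genes known for marrow-derived brain macrophages were mostly higher in unshielded mice too, in comparisons that were known when these genes were listed. Of 28 such genes, 21 were called higher and 2 lower in unshielded mice after LPS, and 24 and 0 without LPS, with median log2 fold changes of 2.11 and 1.49. Over all genes tested, 19.1% were called higher and 25.6% lower after LPS, and 3.98% and 6.85% without LPS. Apoe had 78460 to 103100 CPM in unshielded LPS libraries, 57350 to 87500 in unshielded libraries without LPS, 2431 to 4205 in shielded LPS libraries and 6511 to 23550 in shielded libraries without LPS. Ms4a7 had 128.0 to 156.8 CPM in unshielded LPS libraries, 169.5 to 252.3 in unshielded libraries without LPS, 3.44 to 12.9 in shielded LPS libraries and 18.2 to 59.7 in shielded libraries without LPS. Of 29 microglia identity genes, 23 were called lower and 1 higher in unshielded mice after LPS, and 24 and 1 without LPS. With LPS, 13 of the 28 were called higher and 6 lower in unshielded mice, and 5 higher and 17 lower in shielded mice. Of the 29 microglia identity genes, 4 were called higher and 14 lower with LPS in unshielded mice. In shielded mice 4 of them were called higher and 16 lower. The shares of all genes were 24.3% higher and 18.8% lower in unshielded mice, and 32.4% and 35.1% in shielded mice. These lists were drawn up with earlier results of these data known. Apoe and Ms4a7 were themselves among the 10 genes most raised in unshielded mice after LPS. Sall1 was among the 10 most lowered in unshielded mice without LPS. The counts by shield of both lists are thus a description and no support.

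Markers of other cells that CD11b beads could collect gave a varied picture. Of 10 monocyte markers tested, 9 were called higher and 1 lower with LPS in unshielded mice, and 7 higher and 1 lower in shielded mice. Of all genes, 24.3% were called higher and 18.8% lower in unshielded mice, and 32.4% and 35.1% in shielded mice. By shield, 0 of these markers were called higher and 1 lower in unshielded mice after LPS, and 1 higher and 0 lower without LPS. Here and for the lists below, the shares of all genes by shield were 19.1% higher and 25.6% lower after LPS. Without LPS they were 3.98% and 6.85%. Ly6c2, which marks classical monocytes, had 16.5 to 19.6 CPM in unshielded LPS libraries and 0.547 to 1.85 in unshielded libraries without LPS, and 7.04 to 16.2 in shielded LPS libraries against 2.17 to 3.23 in shielded libraries without LPS. Ccr2, of the same list, went the other way. It had 6.47 to 7.45 CPM in unshielded LPS libraries and 12.3 to 15.6 in unshielded libraries without LPS. In shielded mice Ccr2 had 4.39 to 8.97 CPM with LPS and 17.4 to 19.8 without. Summed monocyte markers were 413.4 to 569.9 CPM in unshielded LPS libraries, 116.1 to 156.6 in unshielded libraries without LPS, 666.7 to 797.0 in shielded LPS libraries and 115.5 to 143.9 in shielded libraries without LPS. The higher sum of shielded LPS libraries was that of Fn1, fibronectin, the marker called lower in unshielded mice after LPS, at a mean of 126.8 CPM in unshielded LPS libraries against 470.2 in shielded LPS libraries. Without Fn1 the sums were 314.9 to 434.5 CPM in unshielded LPS libraries, 61.5 to 82.0 in unshielded libraries without LPS, 202.8 to 348.8 in shielded LPS libraries and 63.0 to 101.3 in shielded libraries without LPS. Of 12 border-associated macrophage markers, F13a1 among them, 10 were called higher in unshielded mice after LPS and 6 without LPS, and 0 lower. Their summed level was 2597 to 3286 CPM in unshielded LPS libraries, 1278 to 1552 in unshielded libraries without LPS, 395.0 to 555.0 in shielded LPS libraries and 458.6 to 603.7 in shielded libraries without LPS. Of 12 neutrophil markers, 0 were called by shield after LPS and 3 lower in unshielded mice without LPS. Their summed level was 526.0 to 1296 CPM in unshielded LPS libraries, 331.1 to 451.6 in unshielded libraries without LPS, 691.3 to 831.2 in shielded LPS libraries and 608.0 to 848.9 in shielded libraries without LPS. No marker of these 3 lists was at 0 counts in any library. The part of any of these cells in the differences above was not tested.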

How the data were processed

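Sorted CD11b-positive brain cells were profiled by RNA sequencing in 12 libraries. The submitters' processing notes name FastQC, STAR, HTSeq and build mm9. Tool versions, the annotation and the strand setting were not given in the sources used here. RNA was linearly amplified, per the labels' protocols. The authors deposited raw read counts (whole numbers) for 36491 Ensembl identifiers, with no row below 2 counts in total. Of these, 254 had no symbol in the reference gene names. Genes that share an exon or 50-base stretches with a neighbour are uncertain, and 10 of the 32 members share an exon.

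Counts were tested with edgeR 4.0.16 in R 4.3.3 (limma 3.58.1) by its two-sided quasi-likelihood test with robust dispersions and TMM factors, and p was adjusted by Benjamini-Hochberg over 18875 genes (threshold 0.05), in 1 model over 4 groups of 3 libraries. The filterByExpr function used a minimum count of 10 and a minimum total of 15. Every p printed is this adjusted p unless DESeq2 1.42.0 is named. SE is the size of the log2 fold change over the root of the F statistic. CPM, counts scaled per library by TMM, were computed here, with a prior count of 2 on the log2 scale. The test was checked on simulated data with 200 changed genes. For LPS it recovered 59% of 2-fold and 85% of 4-fold changes in unshielded mice, and 51% and 88% in shielded mice. By shield it recovered 58% of 2-fold changes without LPS and 41% after LPS. A gene that did not pass may thus still have changed 2-fold. Counting error is part of the spread between libraries, and total counts are in the report.

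The members, lists and tests were chosen with earlier results of these data known. Differences by shield, and differences of LPS effects between unshielded and shielded mice, which are made of them, are given without p, a stricter rule than first set for the differences of LPS effects. For the LPS comparisons, a member among the 10 largest called changes in a direction (mean log2 CPM of at least 3, groups not overlapping) is given without p. So are the LPS effects of Gdf3, Flt3, Pde7b, Ldhd and Stard13, which were among the 10 largest called differences of LPS effects. All 32 members are named. From other lists, the text names fixed genes (Apoe, Ms4a7, P2ry12, Tmem119 and Sall1) and genes with the smallest p of their list in a direction (Pf4, Ccr7 and Fn1). It also names some marker genes picked after their values were seen (Il1b, Cxcl10, Gp1ba, Gp1bb, Gp5, Gp6, Ppbp, Ly6c2 and Ccr2).

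Replicate numbers come from the titles. In the shielded groups with and without LPS, the deviations of same-numbered libraries correlated at 0.112, 0.194 and 0.547. Shielded LPS library 1 correlated more with library 2 without LPS (0.399), so a pairing by number was not clear. The number was used there as a block in an alternative fit. In the other comparisons the correlations of same-numbered libraries were not all positive. Libraries of a group were not copies (chi-square per degree of freedom at least 11.4). Lists of B cell, T and NK cell, endothelial, mural and fibroblast and astrocyte markers were also examined. By shield after LPS they had, of the genes tested, 0 of 3, 1 of 3, 3 of 9, 2 of 10 and 4 of 9 called higher in unshielded mice. The share of all genes was 19.1%.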

Additional observations from a re-analysis of the deposited data

Results flagged for a closer look

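For 4 genes outside the largest changes, edgeR called the difference of the LPS effects by shield. The choice of genes used the values this difference is made of, so it is given without p and shows no more than the size. The log2 difference, unshielded minus shielded, was 1.39 for Lyz2, where LPS gave 0.17 in unshielded and -1.22 in shielded mice. It was 0.80 for Ifitm2, with 3.25 in unshielded and 2.45 in shielded mice. It was 1.64 for Tgfbi, with 2.14 in unshielded and 0.49 in shielded mice, and 1.30 for Cav2, with -1.02 in unshielded and -2.32 in shielded mice. For Flt3 and Stard13 every unshielded LPS library lay above every unshielded library without LPS, and every shielded LPS library lay below every shielded library without LPS. The log2 differences were 2.88 for Flt3 and 2.15 for Stard13. This difference was called for both as well, and it is likewise given without p. The fall of Flt3 in shielded mice was not called with neuron and oligodendrocyte level as a covariate (-0.53). No group had more than 3 libraries, so no library was judged an outlier within its group.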

How the results depend on the processing

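No member changed sign among called values under any alternative. The number of the 32 genes called was 18 for LPS in unshielded mice, 19 for LPS in shielded mice, 26 by shield without LPS, 27 by shield after LPS and 10 for the difference of LPS effects. The conflicting labels mattered most. Without shielded libraries 2 and 3, the comparison by shield without LPS had 10 calls, 7 higher and 3 lower, with the lone shielded library assumed to vary like the other groups. With these 2 libraries grouped by the treatment field, LPS in unshielded mice had 4 calls (3 higher, 1 lower), LPS in shielded mice 0 (0 higher, 0 lower), the shield without LPS 0 (0 higher, 0 lower) and the difference 0 (0 higher); the cause was not tested. With neuron and oligodendrocyte level as a covariate, 8 genes were called lower with LPS in shielded mice in place of 14. Leaving out each library in turn gave 18 to 19, 17 to 20, 21 to 27, 27 to 29 and 7 to 14 calls in the order above.

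With the replicate block in the 12-library model the counts were 18, 19, 25, 28 and 11, and with the block in the shielded groups alone, an alternative added after seeing the data, LPS in shielded mice had 19. Beside the calls named in the report, the block ended the call of Mcub by shield without LPS and added those of Ahnak by shield after LPS and of Pla2g7 in the difference of LPS effects. DESeq2 gave 18, 19, 26, 27 and 13 calls. Scaling by library totals gave 19, 22, 24, 27 and 10 calls and moved the median of all genes to -0.36 for LPS in unshielded and -0.49 in shielded mice. With 0, 1 and 13 counts in the shielded LPS libraries, few reads limit the fitted values of Gdf3.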
